A study of Homo sapiens with 12 samples.

Results

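The genes described here are 8 genes of prostaglandin E2 production, inactivation and sensing: PLA2G4A, PTGS1, PTGS2, PTGES, PTGES2, PTGES3, HPGD and PTGER4. They were taken by exact gene symbol from a count table of 22545 genes in HaCaT cells, an immortalised human keratinocyte line. All 8 were listed, and 7 of the 8 passed the filter on low counts that left 14207 genes for testing. PTGS1 did not pass it. RNA sequencing libraries came from 4 groups of 3: untreated wild-type HaCaT cells (labelled WT), M5 alone, M5 plus lefamulin, and M5 plus retapamulin. No group received lefamulin or retapamulin without M5. The labels used here state neither the content of M5 nor any dose, time or solvent, so whether the 2 compounds were matched is unknown. Nothing in the labels says that replicates were separate cultures, so every p-value below may measure technical spread only.

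Prostaglandin E2 is a short-lived lipid signal of inflamed skin. A cytosolic phospholipase (PLA2G4A) frees arachidonic acid from membrane phospholipids, the cyclooxygenases PTGS1 and PTGS2 turn it into prostaglandin H2, and the terminal synthases PTGES, PTGES2 and PTGES3 turn that into prostaglandin E2. The hydroxyprostaglandin dehydrogenase HPGD inactivates the product inside cells, and EP4, encoded by PTGER4, is one of its receptors and signals through cyclic AMP. PTGS2 and PTGES are known as the inducible members of the pathway, while PTGS1 and PTGES3 are usually described as constitutive. Lefamulin and retapamulin are pleuromutilin antibiotics, which bind the bacterial ribosome. They share the mutilin core and differ in the side chain it carries.

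The 12 libraries held 35110519 to 37520999 counts. All 3 libraries of a group differed from each other by more than sampling noise. Of 5 keratinocyte markers, KRT5 had a mean of 1631 CPM (counts scaled to library size) in untreated cells, 637 with M5, 454 with lefamulin and 436 with retapamulin, while KRT17 went from 29.0 to 18.8, 4.09 and 4.62 and KRT14 from 8.52 to 3.43, 0.796 and 0.730. TP63 was at 104, 228, 114 and 86.5 CPM and CDH1 at 327, 338, 650 and 660 CPM in the same order. PTPRC, CD3E, LYZ, PECAM1, LUM and DCN, which define leukocytes, endothelium and fibroblasts, were at or near 0 counts throughout. The summed level of 5 fibroblast markers ran from 5.22 to 16.9 CPM over all libraries, nearly all of it COL1A1, whose means were 7.42, 6.08, 15.9 and 10.2 CPM in the same order. The summed level of 3 endothelial markers was 14.6 to 16.7 CPM in untreated libraries and 99.8 to 123 CPM in the other 9. For 5 leukocyte markers it was 11.9 to 14.0 CPM in untreated, 29.8 to 31.1 in M5, 39.4 to 42.8 with lefamulin and 74.7 to 84.4 with retapamulin. CDH5 and CD68 supplied nearly all of the endothelial and leukocyte sums. The part of these markers in the results below was not tested. In bulk RNA, fewer cells using a gene and less RNA per cell cannot be told apart.

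Cells given M5 held more RNA for the releasing phospholipase, the inducible cyclooxygenase and 2 of the 3 terminal synthases than untreated cells, and less for the inactivating dehydrogenase. With either compound added to M5, 6 of these 7 tested genes stood below the M5 level, HPGD included. The receptor PTGER4 was below the M5 level with retapamulin only, with overlapping libraries and a call lost in 4 of 14 alternative settings. The 2 compounds differed for it by a direct test. Levels below are CPM scaled by the trimmed mean of M values (TMM). Fold changes and adjusted p-values come from edgeR's quasi-likelihood test over all 14207 genes, and a gene was called at an adjusted p under 0.05. Of the 7 tested members, 5 were called between M5 and untreated cells, 4 higher and 1 lower, against a background in which 55.2% of all tested genes were called, 28.3% higher and 26.9% lower. With lefamulin against M5, 6 of 7 were called and all 6 were lower, while 67.9% of all genes were called and 34.3% were called lower. With retapamulin against M5, 7 of 7 were called and all 7 were lower, with 72.1% of all genes called and 38.0% called lower. The members' median log2 fold changes were 0.41, -0.76 and -1.07 in the 3 comparisons, where the medians over all tested genes were -0.02, -0.00 and -0.05. More than 1 in 2 of the tested genes were called in each of these comparisons, so sizes and directions are given below gene by gene.

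**Figure D1:**
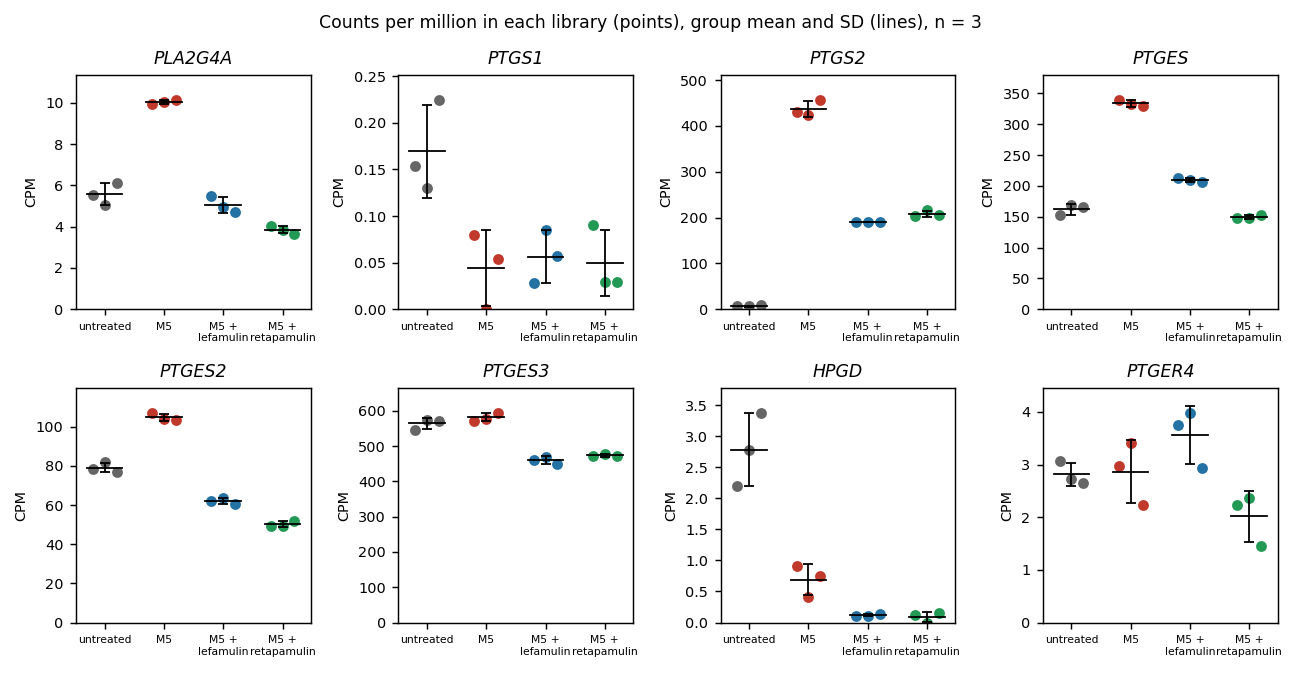
Level of each of the 8 genes in every library, in CPM on TMM-scaled library sizes, with a separate linear axis from 0 for each gene. Points are the 3 libraries of a group, and lines give their mean and SD. PTGS2 goes from 5.99 to 8.25 CPM in untreated libraries to at least 425 in M5 libraries, while HPGD runs the other way and lies at or under 0.146 CPM in all 6 libraries with a compound.

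Per unit of transcript length, the genes of the pathway spanned several orders of magnitude. On the scale of the deposited length-scaled values (FPKM), the order of the mean levels in untreated cells was PTGES3 at 131, PTGES at 102, PTGES2 at 42.8, PLA2G4A at 2.02, PTGS2 at 1.66, PTGER4 at 0.745, HPGD at 0.704 and PTGS1 at 0.0191. The libraries of PLA2G4A and PTGS2 overlapped in that order, as did those of PTGER4 and HPGD. The 3 terminal synthases therefore stood far above the cyclooxygenase that feeds them. In M5 cells PTGES led with 193 FPKM, ahead of PTGES3 with 124 and PTGS2 with 98.0. The ratio of PTGES to PTGS2 was 61.3 in untreated cells, 1.97 in M5 cells, 2.84 with lefamulin and 1.85 with retapamulin, each a ratio of mean FPKM. With retapamulin the order was PTGES3 at 92.1, PTGES at 78.5 and PTGS2 at 42.5.

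**Figure D2:**
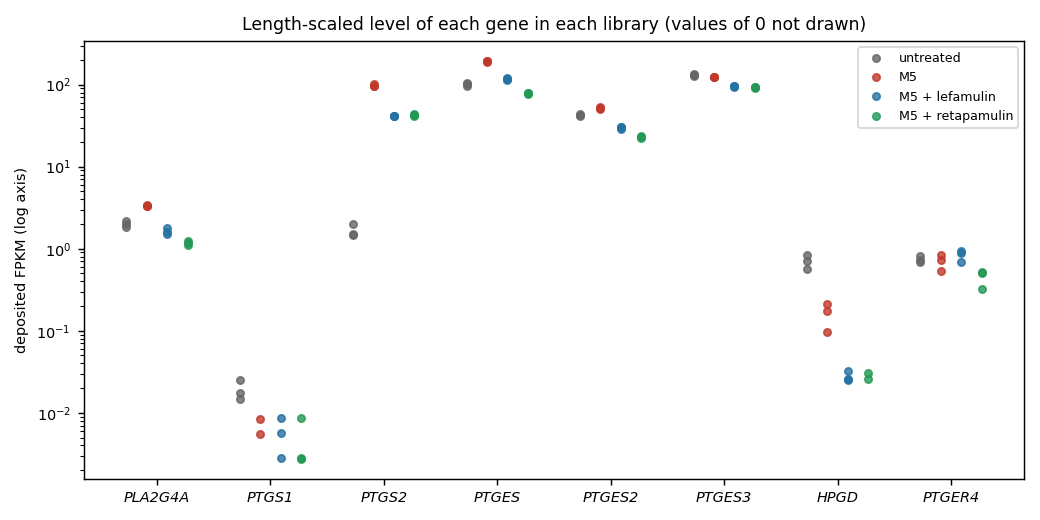
Deposited FPKM of the 8 genes on a logarithmic axis, by group. Each point is 1 library, and a value of 0 is not drawn on this axis. PTGS2 moves from the level of PLA2G4A in untreated cells to near that of PTGES and PTGES3 in M5 cells, and HPGD drops away from the other tested genes.

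The transcript of the release step rose with M5 and fell with both compounds. PLA2G4A, the calcium-responsive phospholipase that favours arachidonate, was at 5.54, 5.06 and 6.12 CPM in the untreated libraries and at 9.97, 10.06 and 10.16 CPM in the M5 libraries. The M5 libraries were all higher than the untreated ones and lay close together. The log2 fold change was 0.85 (SE 0.11, edgeR adjusted p = 6.16e-07). With lefamulin the libraries held 5.47, 4.94 and 4.73 CPM, and with retapamulin 4.04, 3.86 and 3.67 CPM. All 6 were below every M5 library, by -0.99 with lefamulin (edgeR adjusted p = 3.63e-08) and -1.38 with retapamulin (edgeR adjusted p = 1.47e-10) on the log2 scale. The retapamulin libraries were also below every untreated library, at a log2 difference of -0.53 (edgeR adjusted p = 3.51e-04). For lefamulin against untreated cells the libraries overlapped and the difference was -0.14 (edgeR adjusted p = 0.276), although it was called on unscaled library totals (adjusted p = 0.0208) and on FPKM, where adjusted p ran down to 0.00547 over its alternatives and up to 0.640.

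PTGS2, the inducible cyclooxygenase COX-2, showed the widest range of the 8 genes. Untreated libraries held 6.21, 5.99 and 8.25 CPM, M5 libraries 430, 425 and 457 CPM. That is a 64.0-fold rise, or 6.0 on the log2 scale (SE 0.06, 95% interval 5.87 to 6.13, edgeR adjusted p = 1.90e-28), which placed PTGS2 at rank 66 of 14207 genes by rise. With lefamulin the libraries held 189.7, 190.3 and 190.6 CPM and with retapamulin 204, 216 and 205 CPM. No library with a compound reached any M5 library, and none came near an untreated one. The mean fell to 43.5% of the M5 level with lefamulin (log2 -1.20, SE 0.05, edgeR adjusted p = 3.65e-17) and to 47.7% with retapamulin (log2 -1.07, SE 0.05, edgeR adjusted p = 2.37e-16). PTGS2 thus stayed 27.8-fold above untreated cells with lefamulin and 30.5-fold above with retapamulin.

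In the RefSeq tables for GRCh38.p14, PTGS2 and PLA2G4A are neighbouring protein-coding genes on chromosome 1. The 250 bases before the PTGS2 start (GRCh38.p14, chr1:186680424-186680673, minus strand) are shown because this gene changed most, with motif matches in capitals and written 5′ to 3′ on the strand of the gene.
PTGS2: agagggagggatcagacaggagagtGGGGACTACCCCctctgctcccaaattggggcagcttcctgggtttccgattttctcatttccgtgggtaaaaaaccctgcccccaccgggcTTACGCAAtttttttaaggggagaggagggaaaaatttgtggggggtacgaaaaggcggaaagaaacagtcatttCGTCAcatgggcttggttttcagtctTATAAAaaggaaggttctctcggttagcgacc
The capitals mark, in this order, overlapping matches to an NF-kB pattern (GGGNNNNNCC) at 3 positions, 1 of them on both strands, 1 place that matches a C/EBP pattern (TTNCNNAA) on both strands, 1 match to the core of the cyclic AMP response element (TGACG, on the other strand) and 1 to a TATA box (TATAAA). Both strands were searched. Of all 35116 promoter windows of this length in the tables, 54.4% held the NF-kB pattern, 33.2% the C/EBP pattern, 21.2% the response element core and 10.7% the TATA box, so each match alone is common. A match describes letters in the window and not binding in these cells. No match to any of these patterns was found in the PLA2G4A window.

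PTGS1, the cyclooxygenase COX-1, was barely detected. Its counts were 6, 5 and 9 in the untreated libraries, 3, 0 and 2 with M5, 1, 3 and 2 with lefamulin and 3, 1 and 1 with retapamulin, 36 in all. The ratio of pooled untreated to M5 counts was 3.78, with a 95% counting interval of 1.38 to 12.9 that covers counting error only. With the low-count filter dropped, the log2 fold change between M5 and untreated cells was -1.82 (edgeR adjusted p = 0.12), so no change in this gene passed the test. Per length, its mean of 0.0191 FPKM in untreated and 0.00463 FPKM in M5 cells was far under that of PTGS2 in both groups.

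PTGES, the microsomal synthase usually paired with COX-2, was already abundant before M5. Untreated libraries held 152, 169 and 165 CPM and M5 libraries 340, 332 and 329 CPM. The M5 libraries lay well above the untreated ones, a log2 rise of 1.04 (SE 0.04, edgeR adjusted p = 6.07e-18). With lefamulin PTGES was at 212, 210.1 and 207 CPM and with retapamulin at 148, 148 and 153 CPM. The 3 sets of libraries with M5 did not overlap one another, with retapamulin lowest. Against M5 alone PTGES fell by 0.67 on the log2 scale with lefamulin (edgeR adjusted p = 2.52e-14) and by 1.16 with retapamulin (edgeR adjusted p = 4.39e-19). The lefamulin libraries remained above every untreated library (log2 0.37, edgeR adjusted p = 1.56e-09). The retapamulin libraries overlapped the untreated ones, at a log2 difference of -0.12 (edgeR adjusted p = 0.00515) that was not called with DESeq2 (adjusted p = 0.0513), with its size factors in edgeR (adjusted p = 0.0626) or in a fit of the 2 groups alone (adjusted p = 0.0555), the largest of 14 alternatives being 0.0626 and the smallest 9.12e-10.

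The PTGES promoter window (GRCh38.p14, chr9:129753043-129753292, minus strand) is printed beside that of PTGS2, since both genes rose with M5 and fell with the compounds while one started low and the other high.
PTGES: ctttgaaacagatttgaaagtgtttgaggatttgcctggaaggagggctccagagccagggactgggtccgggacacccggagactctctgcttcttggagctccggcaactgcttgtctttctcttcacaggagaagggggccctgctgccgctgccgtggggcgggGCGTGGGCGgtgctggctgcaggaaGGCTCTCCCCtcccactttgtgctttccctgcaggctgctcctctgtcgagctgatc
The first capitals match the EGR1 pattern GCGTGGGCG, which 0.72% of all windows held, and the second match the NF-kB pattern on the other strand. The PTGES window has no TATAAA. A PTGES2 window also held the EGR1 pattern, so among the members this match is not particular to PTGES.

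PTGES2, a second membrane-associated synthase, and PTGES3, the cytosolic synthase also known as the HSP90 co-chaperone p23, had smaller log2 changes with M5 than PTGES. PTGES2 was at 78.7, 81.8 and 76.9 CPM in untreated libraries and 107, 104 and 103 CPM in M5 libraries, a log2 rise of 0.41 (SE 0.04, edgeR adjusted p = 2.41e-09). It was at 62.2, 63.6 and 60.4 CPM with lefamulin and 49.5, 49.5 and 51.9 CPM with retapamulin. All 6 libraries with a compound were below every untreated library, so PTGES2 ended lower than where it started. Its log2 fold change against M5 was -0.76 with lefamulin (edgeR adjusted p = 1.43e-14) and -1.06 with retapamulin (edgeR adjusted p = 1.89e-17).

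PTGES3 had the highest FPKM of the 8 genes in untreated cells and was nearly level across M5. Untreated libraries held 547, 574 and 571 CPM and M5 libraries 572, 577 and 594 CPM, which overlapped. The log2 difference of 0.04 was not called (edgeR adjusted p = 0.230), and its sign depended on the scaling: on unscaled library totals it was -0.08 (adjusted p = 0.0201, range over all alternatives 0.0184 to 0.602). Libraries with lefamulin held 461, 470 and 448 CPM and with retapamulin 472, 477 and 471 CPM, all below every untreated and every M5 library. PTGES3 fell by 0.34 with lefamulin (edgeR adjusted p = 3.48e-10) and by 0.30 with retapamulin (edgeR adjusted p = 2.87e-09) on the log2 scale. Copies of PTGES3 elsewhere in the genome could share reads with it, so its level is less certain than that of the other synthases. The ratio of PTGES3 to PTGES in mean FPKM was 1.29 in untreated cells, 0.645 with M5, 0.812 with lefamulin and 1.17 with retapamulin.

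**Figure D3:**
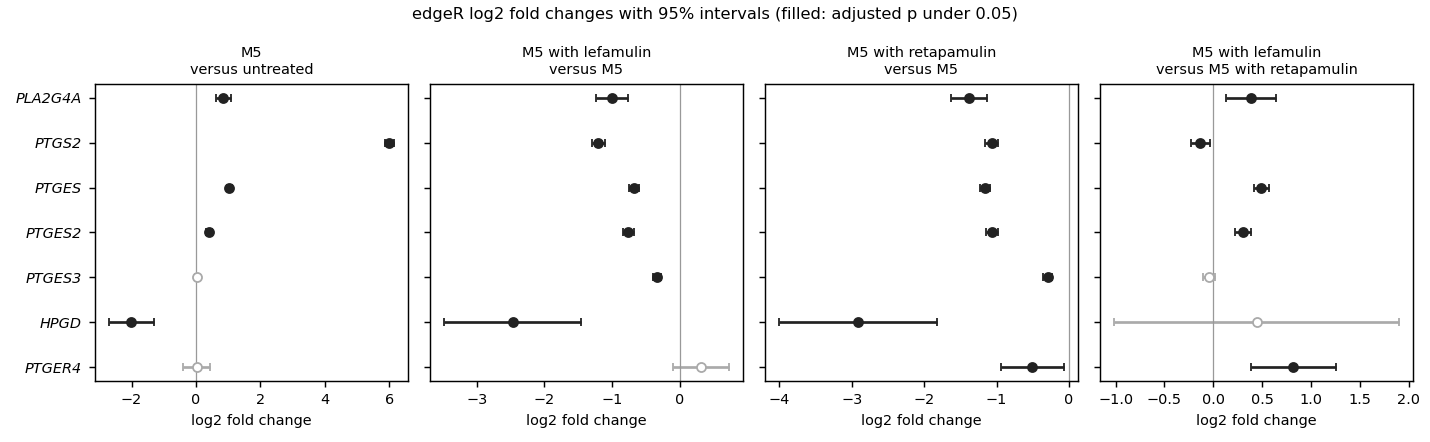
Log2 fold changes of the 7 tested genes from edgeR with 95% intervals, for M5 against untreated cells, for each compound added to M5 against M5 alone and for lefamulin against retapamulin, with filled points where called. PTGS2 stands at 6.0 for M5 and near -1 for both compounds, and HPGD was called below 0 in the first 3 panels. In the last panel PTGER4, PTGES, PLA2G4A and PTGES2 are called above 0 and PTGS2 below it.

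HPGD, the enzyme that starts prostaglandin inactivation, fell at each step. Its counts were 86, 107 and 135 in untreated libraries and 34, 15 and 28 in M5 libraries, or 2.78 ± 0.588 and 0.690 ± 0.254 CPM (mean ± SD, n = 3). Every M5 library was below every untreated library, by 4.01-fold (log2 -2.0, SE 0.34, edgeR adjusted p = 1.97e-05). The counts dropped to 4, 4 and 5 with lefamulin and 4, 0 and 5 with retapamulin. No library with a compound reached the lowest M5 library. The log2 fold change against M5 was -2.47 with lefamulin (SE 0.49, edgeR adjusted p = 9.44e-05) and -2.91 with retapamulin (SE 0.53, edgeR adjusted p = 2.65e-05). These rest on few counts: the pooled ratio of M5 to lefamulin was 5.69 with a 95% counting interval of 3.14 to 11.2, and of M5 to retapamulin 7.81 with an interval of 3.91 to 17.7. HPGD and PTGES thus moved apart with M5 and together, both downward, with the compounds. The ratio of PTGES to HPGD in mean FPKM was 144 in untreated cells, 1197 with M5, 4255 with lefamulin and 4153 with retapamulin. The lefamulin and retapamulin ratios rest on 13 and 9 HPGD counts. In 1 retapamulin library HPGD had 0 counts, and the other retapamulin libraries had ratios of 2590 to 3034. The gene LOC105377548 overlaps HPGD in RefSeq and is among the counted genes. With strand not stated, the reads of the 2 genes may not be fully separated.

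HPGD is the tested member that fell with M5, so its promoter window is given for comparison (GRCh38.p14, chr4:174522489-174522738, minus strand, 1 of 2 starts in the tables).
HPGD: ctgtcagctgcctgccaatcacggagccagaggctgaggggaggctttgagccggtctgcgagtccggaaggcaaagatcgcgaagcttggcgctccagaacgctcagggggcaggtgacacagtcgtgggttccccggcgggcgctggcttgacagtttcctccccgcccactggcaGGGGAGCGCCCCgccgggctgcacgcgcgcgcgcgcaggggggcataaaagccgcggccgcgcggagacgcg
The capitals mark overlapping matches to the same NF-kB pattern as in the PTGS2 and PTGES windows, at 3 positions, 1 of them on both strands. This HPGD window is richer in G and C, at 70.8% against 50.4% for PTGS2 and 61.2% for PTGES. The window of the other HPGD start was at 42.0%, below both. It held a match to the core of the cyclic AMP response element and none to the NF-kB pattern. The NF-kB pattern, held by 54.4% of all windows, was in the windows printed for PTGS2, PTGES and HPGD. It was absent from the PLA2G4A window and from the other HPGD window. Whether it had a part in these changes was not tested.

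PTGER4, which encodes the EP4 receptor, held 120, 105 and 106 counts in untreated libraries, 111, 124 and 83 with M5, 136, 141 and 103 with lefamulin and 74, 80 and 50 with retapamulin. In CPM the means were 2.81 ± 0.223, 2.87 ± 0.597, 3.56 ± 0.552 and 2.02 ± 0.488 (SD, n = 3 each). M5 and untreated libraries overlapped, with a log2 difference of 0.03 (edgeR adjusted p = 0.923) whose sign changed with the scaling. The lefamulin difference from M5, 0.31, was not called either (edgeR adjusted p = 0.174). With retapamulin PTGER4 was 0.51 lower on the log2 scale than with M5 (edgeR adjusted p = 0.0353). That call was lost without M5 replicate 1 (adjusted p = 0.0791), M5 replicate 2 (0.161) or retapamulin replicate 3 (0.199) and in a fit of the 2 groups alone (0.0619), within a range of 0.00911 to 0.199 over all alternatives. The difference between the compounds was firmer: every lefamulin library was above every retapamulin library, by 0.82 on the log2 scale (SE 0.21, edgeR adjusted p = 0.00302), and it was called in all 14 alternatives, with the adjusted p between 6.33e-04 and 0.0273. TTC33 overlaps PTGER4 in RefSeq, and with strand not stated the reads of the 2 genes may not be fully separated.

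Lefamulin and retapamulin were compared with each other directly, each on top of M5. Of the 7 tested members 5 were called, 4 higher with lefamulin and 1 lower, where 40.0% of all tested genes were called, 18.8% higher and 21.2% lower. PTGES differed most firmly, being higher with lefamulin by 0.49 on the log2 scale (95% interval 0.41 to 0.57, edgeR adjusted p = 2.22e-10). PTGES2 was higher by 0.30 (edgeR adjusted p = 2.62e-06). PLA2G4A was higher by 0.39 (edgeR adjusted p = 0.0145), a call lost without lefamulin replicate 1 (adjusted p = 0.0701) or retapamulin replicate 3 (0.0545), within a range of 0.00152 to 0.0701. PTGS2 was the member called lower with lefamulin, by -0.13 (95% interval -0.23 to -0.04, edgeR adjusted p = 0.0264). On unscaled library totals this was -0.04 (adjusted p = 0.451), and 7 of 14 alternatives did not call it, the adjusted p running from 2.07e-04 to 0.709. PTGES3 was not called at -0.04 (95% interval -0.10 to 0.02, edgeR adjusted p = 0.283), although size factors from DESeq2 made it -0.08 (adjusted p = 0.0435 in edgeR, range 0.0225 to 0.636). For HPGD the interval of the difference ran from -1.01 to 1.90. At 13 against 9 counts, differences within that range in either direction were not excluded.

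Each group with a compound was also compared with untreated cells. With M5 and lefamulin, 5 of 7 members were called against untreated cells, 2 higher and 3 lower, where 74.0% of all genes were called, 36.9% higher and 37.1% lower. PTGS2 and PTGES were higher, and PTGES2, PTGES3 and HPGD lower. With M5 and retapamulin all 7 were called, 1 higher and 6 lower, where 78.5% of all genes were called, 37.6% higher and 40.9% lower. PTGS2 was the gene above the untreated level there. The lefamulin count is near the background, and the retapamulin count ranged from 5 to 7 over the alternatives. The PTGER4 call in this comparison (log2 -0.48, edgeR adjusted p = 0.0413) was lost in 6 of 14 alternatives, with the adjusted p between 0.00330 and 0.230. Comparisons with a compound and with M5 share the M5 libraries, and those with untreated cells share the untreated libraries.

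Scaling bears on the small differences. TMM put the median log2 fold change of all genes at -0.02 for M5 against untreated cells and -0.05 for retapamulin against M5. Unscaled library totals put these medians at -0.14 and -0.19, and reduced the share of calls that were higher from 51.3% to 31.5% and from 47.3% to 37.4%. For lefamulin against retapamulin the share of calls that were higher with lefamulin was 47.0% with TMM, 72.7% on library totals and 36.8% with DESeq2 size factors. The rises of PTGS2, PTGES, PLA2G4A and PTGES2 with M5, the fall of HPGD, and the falls of all 6 genes with each compound were called under every scaling tried.

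Beyond the 8 genes, 26 tested genes of prostanoid release, synthesis, breakdown, transport and sensing were counted, from a list chosen with earlier results of these data known. With M5 9 of the 26 rose and 12 fell. With lefamulin against M5 5 rose and 15 fell, and with retapamulin 5 rose and 17 fell. Of all tested genes, 28.3%, 33.6% and 34.1% were called higher in these 3 comparisons and 26.9%, 34.3% and 38.0% lower. The medians were -0.26, -0.54 and -0.50 on the log2 scale for the list.

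Among 13 other tested genes of arachidonate release, 5 rose and 4 fell with M5. Of all tested genes, 28.3% were called higher and 26.9% lower there. PLA2G4E, a cytosolic phospholipase A2 relative of PLA2G4A, went from 0.0416 ± 0.0721 CPM in untreated cells, with all 5 counts in 1 library, to 15.1 ± 0.687 CPM with M5 (SD, n = 3). It was at 2.74 ± 0.505 CPM with lefamulin and 1.32 ± 0.341 CPM with retapamulin, and fell by 2.46 and 3.51 on the log2 scale against M5. Its 2.69 FPKM in M5 cells was close to the 3.35 FPKM of PLA2G4A. MGLL, the monoacylglycerol lipase that also yields arachidonate from an endocannabinoid, did not follow it. MGLL was at 0.196 CPM in untreated and 0.162 CPM in M5 cells, and rose with lefamulin to 1.49 ± 0.189 CPM (log2 3.17, edgeR adjusted p = 3.48e-08) and with retapamulin to 4.20 ± 0.272 CPM (log2 4.67, edgeR adjusted p = 8.56e-12). ANXA1, annexin A1, known as an inhibitor of phospholipase A2 activity, was abundant at 1005 ± 27.9 CPM with M5 and rose to 1173 ± 29.5 with lefamulin and 1691 ± 13.9 with retapamulin.

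Of 6 other prostanoid synthases, 2 rose and 4 fell with M5, 5 fell with lefamulin and 6 fell with retapamulin. Of all tested genes, 55.2% were called with M5, and 34.3% and 38.0% were called lower with lefamulin and retapamulin. AKR1C3 and AKR1B1, aldo-keto reductases that can form prostaglandin F2alpha, were the 2 that rose. AKR1C3 was at 4.06 ± 0.434 CPM in untreated cells, 13.9 ± 0.908 with M5, 5.74 ± 0.255 with lefamulin and 5.10 ± 0.114 with retapamulin. AKR1B1 was at 109.6, 165, 111 and 88.4 CPM in the same order. PTGIS, the prostacyclin synthase, had 112 counts in untreated cells, 27 with M5, 0 with lefamulin and 2 with retapamulin. Relative to M5 it was at least 8.64-fold lower with lefamulin, taking 3 counts over the group as the floor, and 12.3-fold lower with retapamulin (95% counting interval 3.10 to 107). Both falls were called by edgeR (adjusted p = 1.10e-04 and 0.00114) but not by limma on log2(FPKM + 1) (adjusted p = 0.117 and 0.140, the highest of 13 alternatives each, with 9.41e-07 and 1.63e-04 the lowest).

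Among 5 genes of further breakdown and transport, 2 rose and 3 fell with M5, where 55.2% of all tested genes were called. The 2 that rose were transporters. ABCC4, which exports prostaglandin E2, was at 49.1 ± 2.55 CPM in untreated cells and 70.9 ± 2.27 with M5, then 33.2 ± 0.913 with lefamulin and 36.2 ± 0.664 with retapamulin. Like PTGES2 it ended below the untreated level. SLCO2A1, the prostaglandin uptake transporter that delivers substrate to HPGD, had 14 counts in untreated cells, 65 with M5, 7 with lefamulin and 0 with retapamulin, at least 19.8-fold lower with retapamulin than with M5. PTGER2, which encodes the EP2 receptor, fell from 6.15 ± 0.360 CPM in untreated cells to 2.57 ± 0.203 with M5, 0.739 ± 0.184 with lefamulin and 0.692 ± 0.136 with retapamulin. In mean FPKM it stood above PTGER4 in untreated cells (2.74 against 0.745) and below it with lefamulin (0.295 against 0.840) and retapamulin (0.259 against 0.448).

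**Figure D4:**
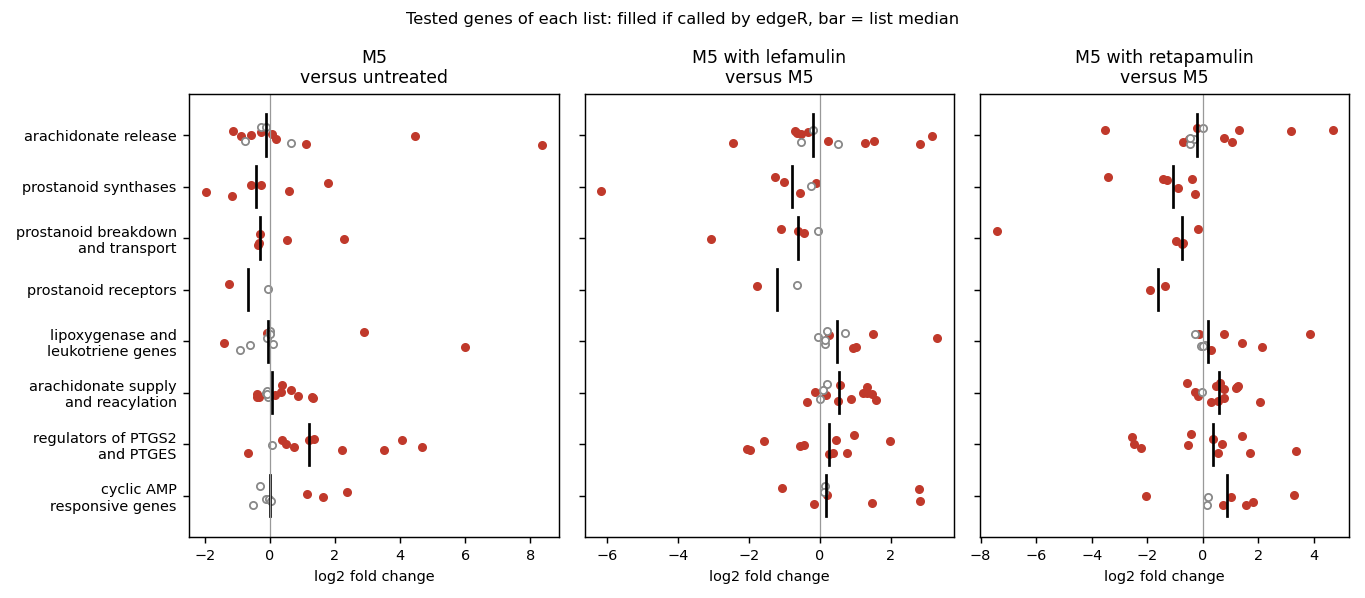
Log2 fold changes from edgeR of the tested genes in each related gene list, for M5 against untreated cells and for each compound with M5 against M5 alone. Each point is 1 gene, filled where called, the bar is the list's median, and values of genes at 0 counts in a group depend on the model's prior and have no exact size. Points of the synthase and receptor lists lie at or below 0 in both compound comparisons, while most called genes of arachidonate supply lie above 0.

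Genes of arachidonate supply and reacylation and of the lipoxygenase branch, which use the same fatty acid, were counted beside these. Of 14 tested supply genes, 9 rose and 2 fell with lefamulin, and 10 rose and 3 fell with retapamulin, where 33.6% and 34.1% of all tested genes were called higher. ACSL4, an acyl-CoA synthetase that favours arachidonate, was at 91.0 ± 6.42 CPM in untreated cells, 165 ± 8.67 with M5, 383 ± 1.65 with lefamulin and 400.2 ± 3.77 with retapamulin. Of 10 lipoxygenase and leukotriene genes, 2 rose and 2 fell with M5, 5 rose and 0 fell with lefamulin, and 5 rose and 1 fell with retapamulin. At 4, 5 and 6 of 10 called, this list lay under the 55.2%, 67.9% and 72.1% called among all genes. The shares of all genes called higher were 28.3% with M5, 33.6% with lefamulin and 34.1% with retapamulin. Those called lower were 26.9%, 34.3% and 38.0% in the same order. ALOX5, the 5-lipoxygenase, went from 3.93 ± 0.671 CPM to 29.2 ± 1.59 with M5, and stood at 32.2 ± 1.27 with lefamulin and 36.1 ± 0.674 with retapamulin. So the 2 oxygenases PTGS2 and ALOX5 both rose with M5, and PTGS2 alone of the pair fell when a compound was added. ALOX12B, an epidermal lipoxygenase of barrier formation, had 0 counts in untreated cells and was at 0.215, 2.17 and 3.16 CPM in the other groups.

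Of 11 genes known to regulate PTGS2 or PTGES transcripts, 9 rose and 1 fell with M5, where 28.3% of all tested genes were called higher and 26.9% lower. With each compound 6 rose and 5 fell against M5, where 67.9% of all genes were called with lefamulin and 72.1% with retapamulin. IL1A and IL1B, cytokines that induce PTGS2, were among those that rose with M5 and fell with both compounds. They were higher with lefamulin than with retapamulin by 0.44 and 0.98 on the log2 scale. PTGS2 was lower by -0.13 in that comparison, a difference not called in 7 of 14 alternatives. IL1A was at 15.6 ± 2.06 CPM in untreated cells, 400.0 ± 12.6 with M5, 96.0 ± 2.85 with lefamulin and 70.9 ± 2.75 with retapamulin. IL1B was at 27.6 ± 2.27, 464 ± 10.6, 155 ± 7.82 and 78.6 ± 3.42 CPM. CEBPD, a transcription factor of the C/EBP family, was at 20.2 ± 1.76, 229 ± 9.21, 58.3 ± 2.31 and 48.6 ± 1.86 CPM. EGR1, a zinc-finger factor known to drive PTGES, was the gene of this list that fell with M5 (log2 -0.68) and rose with lefamulin (1.98) and retapamulin (3.35), to 39.8 ± 2.32 and 103 ± 5.53 CPM from 10.1 ± 0.954 with M5. The log2 changes of PTGES in these 3 comparisons were 1.04, -0.67 and -1.16. JUN rose with M5 and stood higher again with each compound, going from 19.6 ± 0.409 to 50.6 ± 2.50, 99.0 ± 2.13 and 163 ± 2.12 CPM. Whether any gene of this list acted on PTGS2 or PTGES in these cells was not tested.

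Of 8 tested genes that respond to cyclic AMP, 3 rose and 0 fell with M5, 4 rose and 2 fell with lefamulin, and 5 rose and 1 fell with retapamulin. The share called, 3 of 8 with M5 and 6 of 8 with each compound, compares with 55.2%, 67.9% and 72.1% of all genes. NR4A1, an immediate-early nuclear receptor, was at 5.0 ± 0.191 CPM in untreated and 4.92 ± 0.552 in M5 cells, and at 34.4 ± 0.260 with lefamulin and 47.3 ± 1.44 with retapamulin. AREG, which encodes the growth factor amphiregulin, rose from 7.59 ± 0.537 CPM to 39.6 ± 2.17 with M5, then fell slightly to 35.0 ± 1.56 with lefamulin and rose to 79.1 ± 4.42 with retapamulin. PDE4D was lower than with M5 alone with lefamulin (log2 -1.06) and with retapamulin (log2 -2.03). It was the 1 gene of this list called lower with retapamulin.

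The genes whose levels followed PTGS2 most closely over the 12 libraries were SGK1, CFB and SDC4, with Pearson correlations of log2 CPM of 0.998, 0.997 and 0.997. CFB, complement factor B, was at 6.41 ± 0.794 CPM in untreated cells, 459 ± 8.57 with M5, 159 ± 0.522 with lefamulin and 166 ± 1.95 with retapamulin, and its level rose and fell with the same groups as that of PTGS2. PTGES was followed most closely by SERPINB13 (0.990), VDR (0.987) and QSOX2 (0.986), and HPGD by IDNK (0.987), THOC3 (0.982) and CHTF18 (0.980). The libraries fall into 4 groups, so these correlations mostly rank likeness of 4 group means and carry no test.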

How the data were processed

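The count table that the authors deposited holds whole-number read counts per gene symbol, unnormalized, and their second deposited table holds FPKM. HISAT2 and HTSeq are named in the submitters' processing notes. For versions, genome build and strand setting the sources used here give nothing. The extraction text in the labels describes mouse epidermis, which goes against the HaCaT source, and was not used. Genes were filtered with filterByExpr (minimum count 10), and 1 edgeR 4.0.16 quasi-likelihood fit (R 4.3.3, TMM, Benjamini-Hochberg over 14207 genes) covered all 12 libraries. SE is the fold change over the root of its F value. Alternatives used DESeq2 1.42.0, limma 3.58.1 on log2(FPKM + 1) and log2(FPKM + 0.1), other scalings and filters, and left-out libraries. The test scripts were tested on simulated data. Members and lists were chosen with earlier results of these data known. Of 88 list entries, 79 matched by symbol, 1 by a RefSeq synonym and 8 not at all. Named genes were all members, from each list up to 2 called genes per direction and comparison with the largest changes, of which a selection is given, and the 3 genes most like PTGS2, PTGES and HPGD by Pearson correlation of log2 CPM. CPM uses TMM-scaled totals. Sequences are RefSeq promoters for 8 of 8 members.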

Additional observations from a re-analysis of the deposited data

How the results depend on the processing

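Each result was recomputed under 14 alternatives, or 13 where a fit of 2 groups filtered the gene out: DESeq2, its size factors, unscaled library totals, no filter, limma on log2(FPKM + 1) and log2(FPKM + 0.1), fits of 2 groups alone, a replicate block and left-out libraries. Of 140 counts of called genes, 139 were within 1.5 times the reported count. Members called between lefamulin and retapamulin numbered 5 and ranged from 3 to 5 with libraries left out, with 3 without lefamulin replicate 1. Of 587 fold changes of members, 548 kept direction and side of the threshold, 22 lost the call, 5 gained it and 12 changed sign, none of the 12 called in the reported fit. For PTGES3, M5 against untreated became -0.0755 on library totals and -0.0748 and -0.0753 on FPKM, and lefamulin against retapamulin became 0.0476, 0.0468 and 0.0472. For PTGER4, M5 against untreated became -0.0908, -0.0410 and -0.0945 in the same settings, and ran from -0.11 (without M5 replicate 2) to 0.18 with libraries left out, with -0.0129 without untreated replicate 3. For HPGD, lefamulin against retapamulin ran from -0.13, without the retapamulin library at 0 counts (replicate 2), to 0.99. Apart from settings with fewer samples, the cause was not tested. Depth limits HPGD, PTGER4 and PTGS1 most.

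Residual correlations gave no sign of pairing by replicate number, though with 3 libraries per group they cannot exclude it. Those of same-numbered libraries ran from -0.144 to 0.184 (18 pairs), and of others from -0.271 to 0.260 (36 pairs). With the replicate block, members called numbered 5 for M5 against untreated, 6 and 7 for lefamulin and retapamulin against M5, and 5 between the compounds, as without it.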
